A study of Mus musculus with 18 samples.

Results

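Sterol and fatty acid synthesis genes were taken as a set of 31 genes out of the 22019 genes measured. Of the set, 20 genes belong to sterol synthesis and 11 to fatty acid synthesis. They were chosen by their place in the pathway, with earlier results of these data known. The messenger RNA came from NIH 3T3 cells, a mouse embryonic fibroblast line, grown on polyacrylamide gels of 1 kPa (soft) or 308 kPa (stiff). The question was how the level of each messenger RNA depends on gel rigidity, on the LINC complex, which links the nucleus to the cytoskeleton, and on myosin activity. There were 18 libraries, 3 in each of 6 groups. SUN1L cells carried SS-HA-Sun1L-KDEL, the lumenal part of SUN1 with an HA tag, which acts as a dominant negative on the LINC complex, and they were grown on 1 kPa and on 308 kPa. KDEL cells carried SS-GFP-KDEL, a green fluorescent protein sent to the same compartment, and served as controls on both gels. KDEL cells on 308 kPa were also grown with 25 μM Y27 or 10 μM blebbistatin, both given as treatments that inhibit myosin. All groups, controls included, received 1 μg/ml doxycycline for 48 hr, which switches the transgene on. Both lines were stable lines made with retroviral vectors, and KDEL cells were in addition enriched by fluorescence sorting, so the lines differ in more than the transgene. The libraries of a group were described as biological replicates, but whether they came from separate cultures or days was not stated, so p-values measure the spread between these libraries and no more. Library 34 was counted with blebbistatin by the label for myosin inhibition, but its other labels name an empty vector and Y27. The values used for it stand under a library number that no sample of the series has, and were matched to it by its source name. The blebbistatin comparisons are given with and without it. It also enters the estimate of spread behind the p-values of Y27 against untreated cells, which were not refitted without it.

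Cholesterol is built from acetyl-CoA by way of mevalonate, squalene and lanosterol, and fatty acids are built from the same acetyl-CoA by way of malonyl-CoA. Both pathways are under the control of the SREBP transcription factors, which Srebf2 and Srebf1 encode. When sterols are plentiful the precursors are held in the endoplasmic reticulum by Scap and the Insig proteins, and when sterols are scarce they move to the Golgi, are cut, and act on the genes of both pathways together with NF-Y, a factor that binds the letters CCAAT. Dividing cells such as fibroblasts in culture draw on both pathways for membrane.

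The promoters show what the members share in sequence. Of the 31 genes, 24 had a RefSeq promoter (GRCm38.p6, 250 bases before the start to 50 after it), and both strands were searched for 3 motifs. The others were Fdps, Fdft1, Sqle, Stard4, Scd1, Scd2 and Fads1. The classical sterol regulatory element was in 0 of the 24 and in 0.0913% of all 32851 promoters. The shorter and looser TCACNCCAC, which every copy of the classical element also matches, was in 1 of the 24, that of Hmgcs1, and in 1.24% of all promoters. CCAAT was in at least 1 promoter of 19 of the 24 genes (79.2%), 14 of 16 sterol genes and 5 of 8 fatty acid genes, against 41.1% of all 27025 genes with a promoter. A match is a description of letters, not of binding, and a missing match says only that the letters are not in this window. The promoters of Hmgcs1 (chr13:119690101-119690400, plus strand), Idi1 (chr13:8885356-8885655, plus strand) and Fasn (chr11:120824498-120824797, minus strand) are printed in the direction of the gene with matches to TCACNCCAC and CCAAT in capitals, where ATTGG is CCAAT on the other strand. Hmgcs1 was chosen because it holds the looser element, and Idi1 and Fasn, chosen after their values were seen, because Idi1 was the gene furthest below its group in the libraries that stood apart and Fasn is the fatty acid synthase.
Hmgcs1: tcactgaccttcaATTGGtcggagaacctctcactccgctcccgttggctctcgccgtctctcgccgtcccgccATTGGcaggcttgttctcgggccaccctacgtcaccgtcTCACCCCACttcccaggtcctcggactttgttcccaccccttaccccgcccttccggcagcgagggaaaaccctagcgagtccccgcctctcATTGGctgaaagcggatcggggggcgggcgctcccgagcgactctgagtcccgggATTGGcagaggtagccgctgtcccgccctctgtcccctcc
Idi1: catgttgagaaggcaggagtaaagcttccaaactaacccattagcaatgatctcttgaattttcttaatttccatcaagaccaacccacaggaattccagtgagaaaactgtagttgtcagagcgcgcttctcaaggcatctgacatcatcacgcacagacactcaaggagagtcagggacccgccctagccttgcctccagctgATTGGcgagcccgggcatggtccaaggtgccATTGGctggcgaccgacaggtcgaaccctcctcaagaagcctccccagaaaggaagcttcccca
Fasn: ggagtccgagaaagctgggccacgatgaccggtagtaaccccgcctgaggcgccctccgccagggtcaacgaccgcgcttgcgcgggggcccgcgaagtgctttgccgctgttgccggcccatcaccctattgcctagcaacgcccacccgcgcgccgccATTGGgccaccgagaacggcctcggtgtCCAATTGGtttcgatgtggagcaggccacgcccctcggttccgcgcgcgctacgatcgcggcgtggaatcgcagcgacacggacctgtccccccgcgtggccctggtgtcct
The capitals TCACCCCAC of Hmgcs1 begin at position -137 from the start. The pair of CCAAT matches in Idi1 begin at positions -45 and -14, and those of Fasn at positions -90, -62 and -59, the last pair overlapping on opposite strands.

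The summed signal was 29583296 to 34880352 per library, which is after TMM scaling and does not give the depth, and the lowest value of any member stood at 73.8 times the most frequent low value of its library. All 31 members passed the filter on low values. The 8 fibroblast markers summed to 518865.8 to 862795.5 per library, the 8 adipocyte markers to 22.6 to 136.9 and the 5 epithelial markers to 227.9 to 1169. Lep, Cebpa and Krt18 were at the lowest value of 1 in all 18, while Krt14 read 32.04 to 871.8, Cdh1 88.04 to 311 and Pparg 6.488 to 118.3. Sun1 read 38452 to 82617 in the 6 SUN1L libraries and 2785 to 3799 in the 12 KDEL libraries. By number the libraries form 3 series, called runs here (3 to 12, then 15 to 24, then 27 to 36). A run holds a single library of each group, and nothing says what its libraries share. In the first run, libraries 3 (SUN1L, 1 kPa), 7 (SUN1L, 308 kPa) and 8 (KDEL, 308 kPa) stood apart from the other libraries of their groups, and libraries 4, 10 and 12 did not. The comparisons below are therefore given with and without libraries 3, 7 and 8.

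Libraries 3, 7 and 8 were low in sterol and fatty acid genes and in markers of dividing cells. Against the mean of the other libraries of the group, the median of the 20 sterol genes was lower by a log2 difference of -1.58 in library 3, -1.93 in library 7 and -2.14 in library 8. For the 11 fatty acid genes the medians were -1.01, -0.84 and -1.21, and over all 16021 genes tested they were -0.03, -0.04 and -0.02. At least 2-fold lower were 24, 23 and 25 of the 31 members, against 8.52%, 9.24% and 10.4% of all genes. In libraries 4, 10 and 12 of the same run no member was 2-fold from its group. Of all 16021 genes, 678, 599 and 791 were at least 2-fold lower in these libraries and 270, 494 and 327 higher. All 12 markers of dividing cells were at least 2-fold lower in the same 3 libraries, with medians of -3.16, -2.93 and -2.77, and their mean log2 signal was 8.76, 9.12 and 9.44 there against 11.71 to 12.48 in the other 15 libraries. The part of cell division in the members' values was not tested. In bulk RNA, fewer cells of a type and less RNA per cell cannot be told apart.

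**Figure D1:**
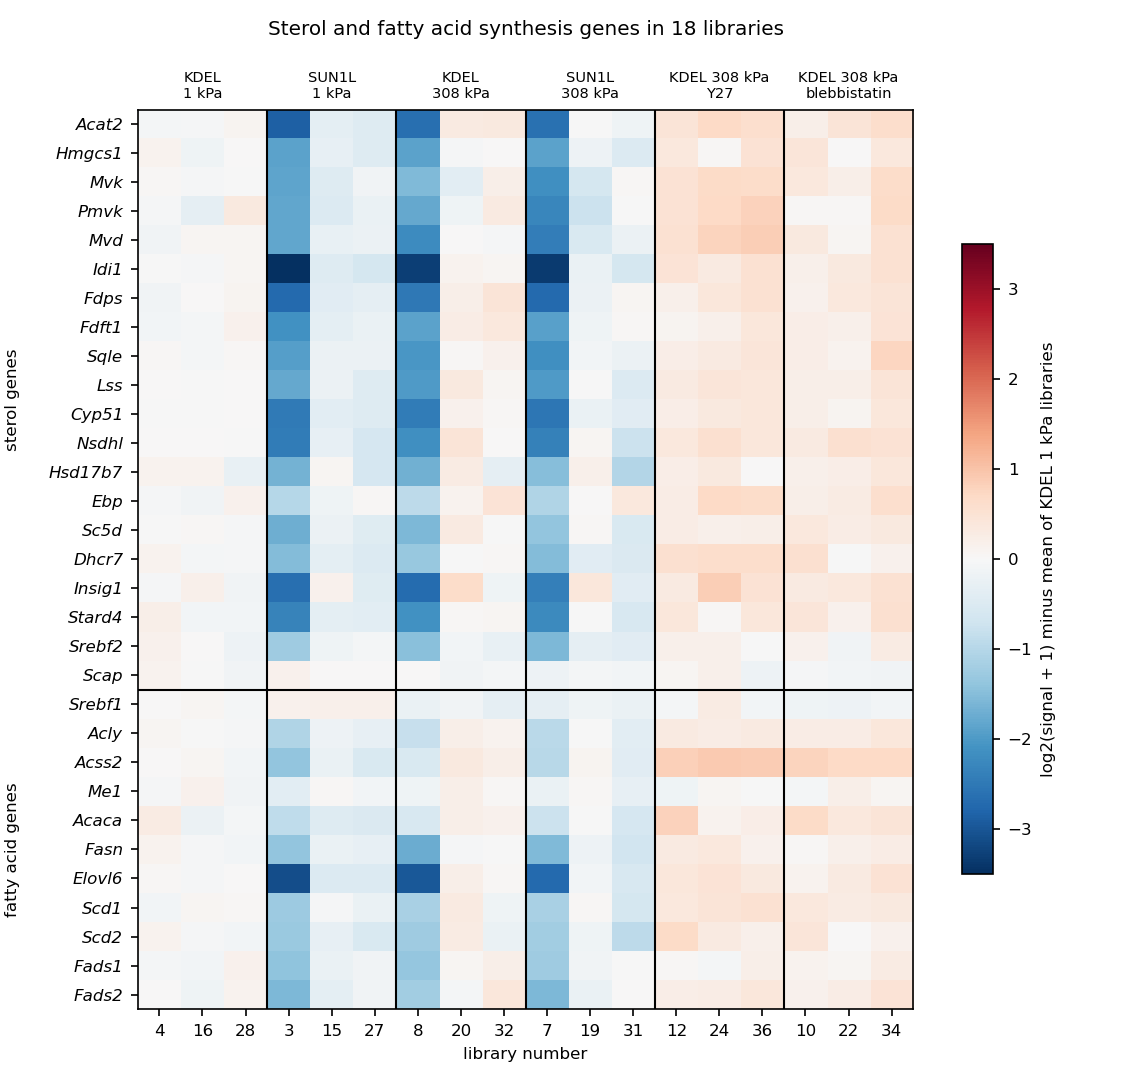
Heat map of 31 genes (rows, in the order of the pathway) in 18 libraries (columns, by group). The colour is log2(signal + 1) minus the mean of the 3 KDEL libraries on 1 kPa. Libraries 3, 8 and 7 are blue in nearly every row, Scap, Srebf1 and Me1 are pale throughout, and Acss2 is red in all 6 libraries with an inhibitor.

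The plot of levels by group shows the same split for the sums of the lists. Mean log2 signal of the sterol genes was 10.10, 10.15 and 10.05 in libraries 3, 8 and 7. It was 11.73 to 12.18 in the other libraries without inhibitor and 12.24 to 12.52 in the 6 libraries with one. The fatty acid genes followed the same order with smaller distances, at 11.60 to 11.75 in the 3 low libraries, 12.42 to 12.98 in the others without inhibitor and 13.06 to 13.18 with one. Dividing markers of the libraries with an inhibitor, at 11.84 to 12.43, lay within the range of the untreated libraries other than 3, 7 and 8.

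**Figure D2:**
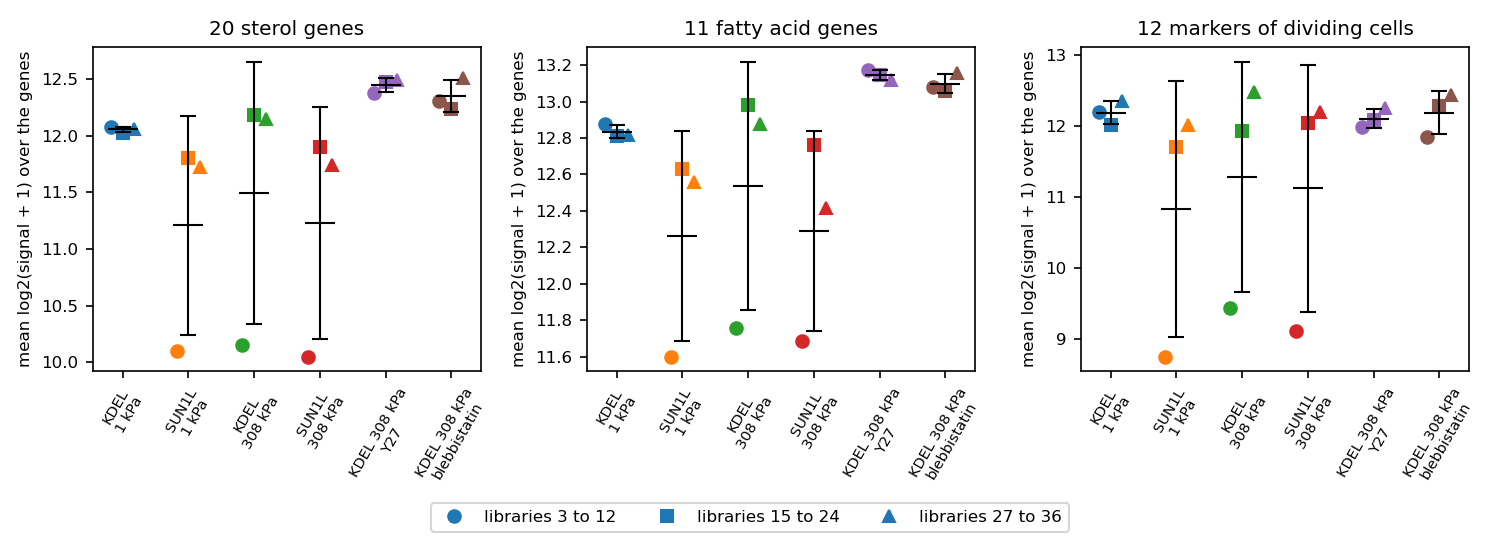
Mean log2(signal + 1) of the 20 sterol genes, the 11 fatty acid genes and 12 markers of dividing cells in each library. Points are libraries, their shape is the run of library numbers, and bars are the group mean and SD (n = 3). The circles of SUN1L on both gels and of untreated KDEL on 308 kPa lie far below the other points in all 3 panels, and the spread of those groups comes from them.

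The members are described first by their place in the pathway, with normalized signal per library in the order of library number. Acat2 (acetyl-CoA acetyltransferase) and Hmgcs1 (HMG-CoA synthase) lead to the precursor of mevalonate. Acat2 read 8289, 8447 and 9302 in KDEL and 1200, 6791 and 6363 in SUN1L cells on 1 kPa. On 308 kPa it read 1392, 10709 and 10964 in KDEL, 1407, 8525 and 7870 in SUN1L, 11766, 13992 and 13139 with Y27 and 10019, 11852 and 13278 with blebbistatin. The single low value of 3 groups was thus 5.48-, 7.78- and 5.82-fold below the mean of the other libraries of its group in libraries 3, 8 and 7, the measure used for all such folds, and the 2 other SUN1L libraries on 1 kPa were also below all KDEL libraries on that gel. Hmgcs1 read 2735 to 2751 in the 3 low libraries and 7238 to 14249 in the other 15.

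From mevalonate to the isoprenoid units, Mvk and Pmvk are the kinases of mevalonate, Mvd the decarboxylase, Idi1 the isomerase of isopentenyl diphosphate and Fdps the farnesyl diphosphate synthase. Idi1 (chr13:8885501-8892451, plus strand, GRCm38) read 8032, 7996 and 8517 in KDEL and 689.6, 6005 and 5304 in SUN1L cells on 1 kPa. On 308 kPa it read 830.2, 8883 and 8537 in KDEL, 799, 6999 and 5323 in SUN1L, 11293, 10084 and 11930 with Y27 and 9244, 10308 and 11929 with blebbistatin. It was the member furthest below its group in each of libraries 3, 7 and 8, by 8.19-, 7.70- and 10.5-fold. Mvd (chr8:122433596-122443422, minus strand) read 1803, 2058 and 2068 in KDEL and 562.6, 1660 and 1702 in SUN1L cells on 1 kPa. On 308 kPa it read 431.2, 2008 and 1926 in KDEL, 367.4, 1360 and 1718 in SUN1L, 2833, 3408 and 3608 with Y27 and 2491, 2064 and 2863 with blebbistatin. All 3 Y27 libraries were thus above every library without inhibitor, also above those on 1 kPa. Mvk read 807.3, 1826 and 2713 in untreated KDEL cells on 308 kPa, 3330, 3737 and 3681 with Y27 and 3026, 2710 and 3661 with blebbistatin. Pmvk read 190.1, 585.3 and 806.7, 923.3, 1054 and 1143 and 678.4, 675.7 and 1034 in the same groups, and 133.9, 390.3 and 645.9 in SUN1L cells on 308 kPa. For both kinases the Y27 libraries lay above all untreated KDEL libraries on 308 kPa, while the blebbistatin libraries overlapped with them. Fdps read 8143, 8908 and 9373 in KDEL and 1329, 6636 and 7105 in SUN1L cells on 1 kPa, and on 308 kPa 1336 to 12664.

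Fdft1 (squalene synthase), Sqle (squalene epoxidase) and Lss (lanosterol synthase) lead by way of squalene to lanosterol. In libraries 3, 7 and 8 they were 2.76- to 4.61-fold below their groups. Cyp51, Nsdhl, Hsd17b7, Ebp, Sc5d and Dhcr7 turn lanosterol into cholesterol, Cyp51 as the demethylase and Dhcr7 as the last reductase. Cyp51 read 14774, 14586 and 14965 in KDEL cells on 1 kPa, 2661, 11412 and 10793 in SUN1L cells on 1 kPa and 2716, 16428 and 15229 in KDEL cells on 308 kPa. Nsdhl read 1012, 5491 and 3099 in SUN1L and 1175, 7122 and 5277 in KDEL cells on 308 kPa. Dhcr7 read 343.7, 855.5 and 877.6 in KDEL, 300.2, 647.1 and 606.2 in SUN1L, 1264, 1321 and 1308 with Y27 and 1261, 847.4 and 953.5 with blebbistatin on 308 kPa. Here the Y27 libraries were above all other libraries of the series, and the first blebbistatin library stood with them while the other 2 did not. Ebp, the isomerase, was the enzyme of this list least apart in library 3, at 1.95-fold.

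The regulators did not move as a block. Insig1, a sterol sensor and itself a target of SREBP, read 13440, 15554 and 12755 in KDEL cells on 1 kPa, 2130, 21464 and 12556 in KDEL cells on 308 kPa, 17102, 25067 and 19821 with Y27 and 17369, 17832 and 20075 with blebbistatin. Its library of the second run was the highest in each of these groups except blebbistatin, where it was second. Stard4, a carrier of cholesterol, was 3.94- to 4.51-fold lower in the 3 low libraries, and Srebf2 2.20- to 2.45-fold. Srebf2 read 3779, 8124 and 8472 in SUN1L cells on 1 kPa and 3036, 7225 and 6825 on 308 kPa. Scap, the escort of the SREBP precursors, read 4238, 3412 and 3896 in libraries 3, 7 and 8 and 3412 to 4338 over all 18. Srebf1 was likewise only 1.01- to 1.09-fold below its group in these 3 libraries. Srebf1 (chr11:60199089-60222581, minus strand, GRCm38) read 2517, 2635 and 2383 in KDEL and 2806, 2824 and 2820 in SUN1L cells on 1 kPa, and 2151, 2291 and 2034 in KDEL and 2034, 2278 and 2140 in SUN1L cells on 308 kPa. On both lines all 3 libraries on 308 kPa were thus below all 3 on 1 kPa.

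Acly and Acss2 supply acetyl-CoA from citrate and from acetate, and Me1 (malic enzyme) supplies NADPH. Acss2 (chr2:155517948-155585724, plus strand, GRCm38) read 625.3, 643.2 and 576.5 in KDEL and 233.8, 520.9 and 425.1 in SUN1L cells on 1 kPa. On 308 kPa it read 420.9, 785.1 and 710.5 in KDEL, 312.2, 652.3 and 469.3 in SUN1L, 1095, 1156 and 1139 with Y27 and 1050, 1002 and 991.3 with blebbistatin. The 6 libraries with an inhibitor, at 991.3 to 1156, were all above the 12 without, of which the highest was 785.1. Acly was 1.69- to 1.96-fold lower in libraries 3, 7 and 8, and Me1 at most 1.28-fold. Acaca (acetyl-CoA carboxylase) makes malonyl-CoA, and Fasn builds palmitate from it. Acaca read 8138, 5752 and 6338 in KDEL and 3575, 4887 and 4711 in SUN1L cells on 1 kPa, and 4563, 7636 and 7431 and 3980, 6626 and 4448 in the same lines on 308 kPa. Fasn read 5402, 17503 and 17613 in untreated KDEL cells on 308 kPa, 22348, 23091 and 19868 with Y27 and 18437, 20143 and 21325 with blebbistatin. For Acaca the low libraries were within 1.65-fold of their groups, for Fasn up to 3.25-fold below.

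Elovl6 lengthens palmitate, Scd1 and Scd2 put in the first double bond, and Fads1 and Fads2 desaturate polyunsaturated chains. Elovl6 read 4286, 4064 and 4215 in KDEL and 486.3, 3005 and 2992 in SUN1L cells on 1 kPa. On 308 kPa it read 530.4, 4870 and 4348 in KDEL, 639.2, 3912 and 2829 in SUN1L, 5467, 5801 and 5296 with Y27 and 4541, 5226 and 5919 with blebbistatin. With 6.15-, 5.27- and 8.68-fold lower values in libraries 3, 7 and 8, it resembled Idi1 more than the other fatty acid genes, which were at most 3.25-fold lower. Scd2 read 58497, 52823 and 50730 in KDEL and 22047, 44304 and 37266 in SUN1L cells on 1 kPa, and 22775, 65488 and 45775 and 23322, 48237 and 28477 on 308 kPa. Scd1 read 4194, 11285 and 8172 in untreated KDEL cells on 308 kPa and 11773, 12543 and 13178 with Y27. Fads1 read 9633, 9326 and 11166 in KDEL and 3781, 8493 and 9262 in SUN1L cells on 1 kPa, where only library 3 stood well apart.

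**Figure D3:**
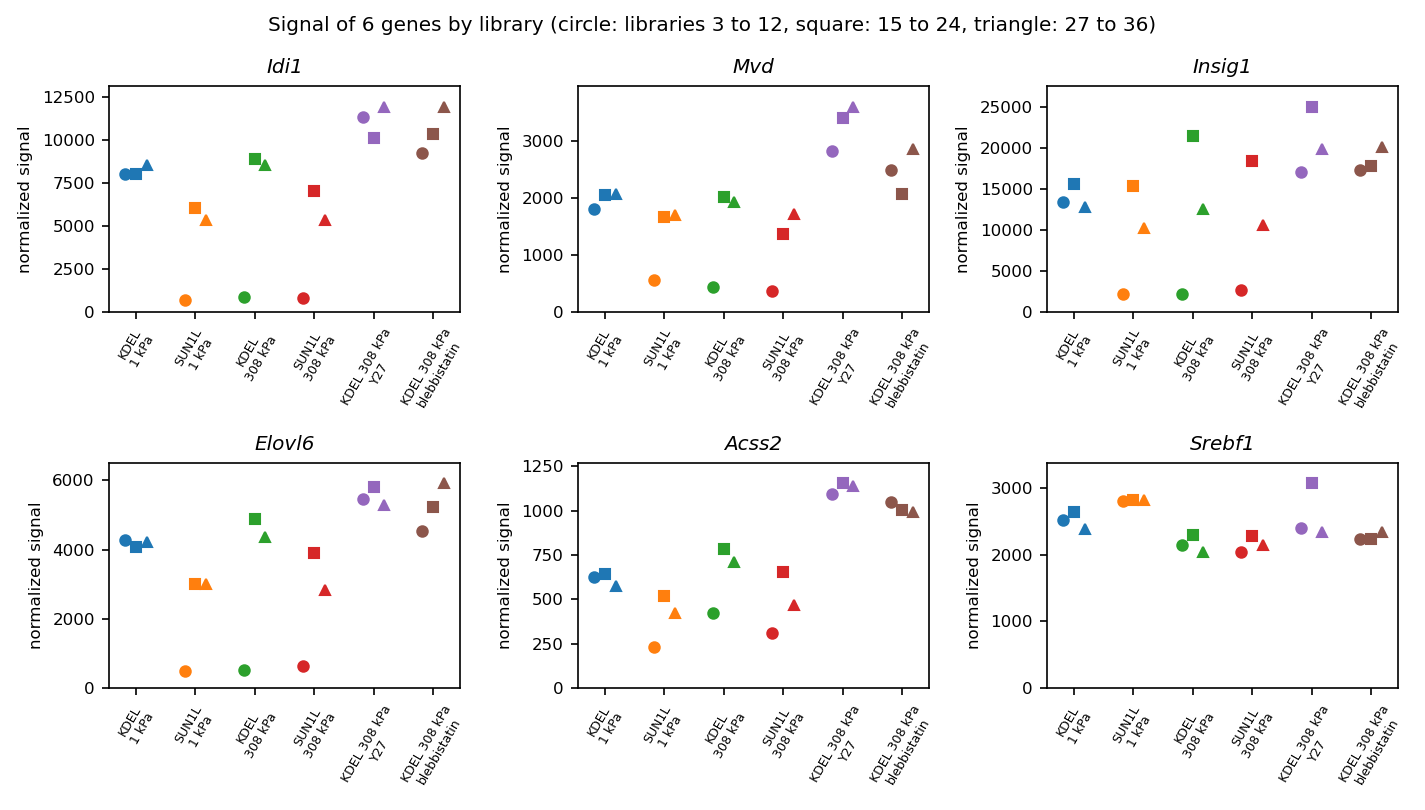
Normalized signal (linear axis from 0) of 6 genes in each library by group, with the run of library numbers as the shape. For Idi1, Mvd, Insig1 and Elovl6 the circles of SUN1L on both gels and of untreated KDEL on 308 kPa are near the axis. For Acss2 all 6 points with an inhibitor lie above the other 12, and for Srebf1 the points on 308 kPa without inhibitor lie below those on 1 kPa.

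In SUN1L cells on 1 kPa, most members were lower than in KDEL cells on the same gel, but none passed the test. The log2 fold change (limma on log2(signal + 1), with Benjamini-Hochberg adjustment over 16021 genes) had a median of -0.83 for sterol genes and -0.62 for fatty acid genes, against -0.01 for all genes. The means of 29 of 31 members were lower. Of the 31, 0 were called at an adjusted p under 0.05 with a 2-fold difference (0.0874% of all genes were), the smallest adjusted p was 0.930, and 1 member, Acaca, had an unadjusted p under 0.05 (1.79% of all genes were lower at that level). A test of proportions on the summed signal, which leaves out the spread between libraries, called 1 member, Idi1, and 4.31% of all genes. The groups did not overlap for 21 members lower in SUN1L cells (7.86% of all genes) and 1 higher, Srebf1 (6.65%). The difference was lower in each of the 3 runs for 27 members, against 21% of all genes.

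The largest differences on 1 kPa were those of Idi1, Elovl6 and Acat2. Idi1 was lower by a log2 fold change of -1.55 ± 1.11 (SE, unadjusted p = 0.191), Elovl6 by -1.36 ± 0.97 and Acat2 by -1.22 ± 0.94. In each of them library 3 was far below the other SUN1L libraries. Acaca differed by -0.62 ± 0.25 (unadjusted p = 0.0321) and Acss2 by -0.72 ± 0.35 (unadjusted p = 0.0639), both with a narrower spread. Fdps and Scd2 differed by -1.15 ± 0.93 and -0.70 ± 0.41. Without libraries 3, 7 and 8 the medians were -0.32 for sterol and -0.23 for fatty acid genes, and 9 members had an unadjusted p under 0.05, all lower (1.99% of all genes), with a smallest adjusted p of 0.565. In that fit Idi1 differed by -0.54 (unadjusted p = 0.00425), Acat2 by -0.40 (unadjusted p = 0.00353) and Cyp51 by -0.41 (unadjusted p = 0.00427). Within the runs the sterol median was -1.93 in the first, -0.23 in the second and -0.38 in the third. Dividing markers were lower in the same comparison, with a median of -1.41, and of -0.33 without libraries 3, 7 and 8. Their part in the result was not tested.

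On 308 kPa the SUN1L cells also had the lower means, in 31 of 31 members, by a median of -0.27 for sterol genes and -0.25 for fatty acid genes, against -0.03 for all genes. The direction turned with single libraries: the sterol median was 0.31 without library 7, 0.09 without library 20, 0.07 without library 32 and -0.995 without library 8. Here both groups hold a low library, 7 and 8, so the groups overlapped for all 31 members (they did not for 2.33% of all genes, lower). With limma, 0 members were called (0.0624% of all genes), none had an unadjusted p under 0.05 (1.36% of all genes were higher and 1.17% lower at that level), all adjusted p were 1, and the test of proportions called 0 (2.5% of all genes). The difference was lower in all 3 runs for 20 members (16% of all genes). Pmvk at -0.47 ± 0.66, Nsdhl at -0.45 ± 0.78 and Dhcr7 at -0.38 ± 0.43 (SE) led the sterol genes. Acss2 at -0.43 ± 0.35, Acaca at -0.38 ± 0.25 and Scd2 at -0.36 ± 0.41 led the fatty acid genes. Without libraries 3, 7 and 8 the medians were -0.38 and -0.37, and the groups did not overlap for 18 members, all lower (10.2% of all genes, with 2 libraries against 2). In that fit 11 members had an unadjusted p under 0.05, all lower (1.79%), with a smallest adjusted p of 0.834. Dividing markers had a median of -0.18 here, and of -0.09 without the 3 libraries.

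**Figure D4:**
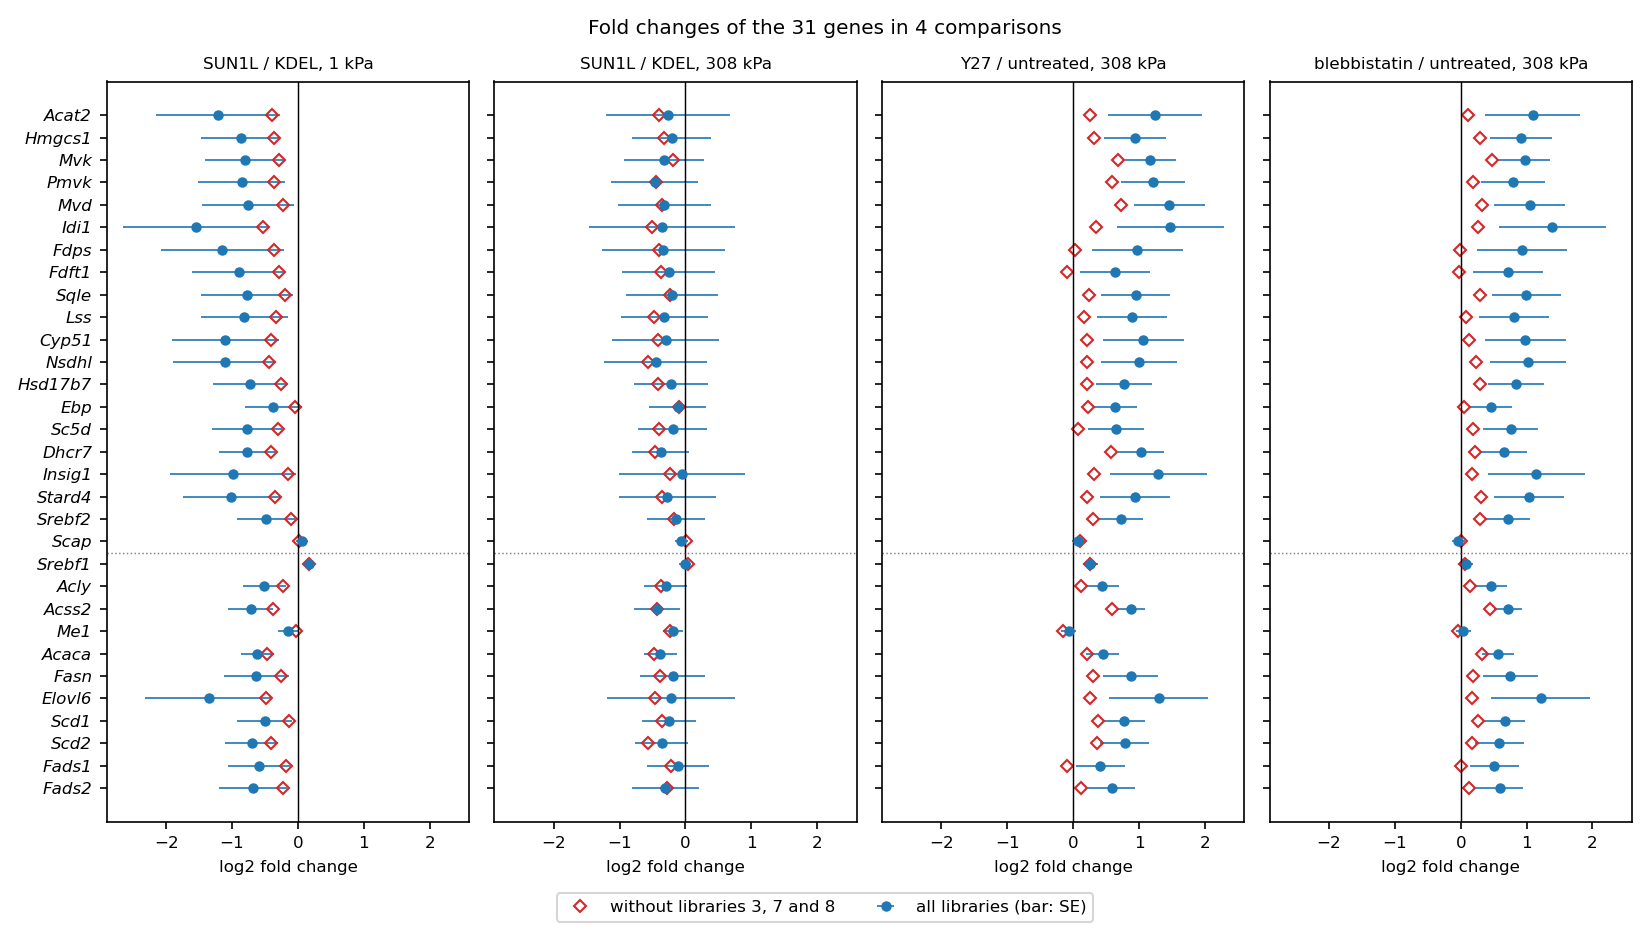
Log2 fold changes of the 31 genes in 4 comparisons. Filled points are from all libraries, with SE, and open diamonds are without libraries 3, 7 and 8. In SUN1L against KDEL cells the diamonds keep to the left of 0 on both gels for most genes, and in the inhibitor panels they lie closer to 0 than the points, with Mvd, Mvk, Pmvk, Dhcr7 and Acss2 the furthest right with Y27, at 0.58 to 0.73.

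Gel rigidity alone gave no call among the members either. From 1 kPa to 308 kPa, the sterol median in KDEL cells was -0.59 and the fatty acid median -0.30, with all genes at -0.01. There limma called 0 members (0% of all genes) and the test of proportions 0 (2.07%). Idi1 at -1.04 ± 1.11, Cyp51 at -0.75 ± 0.81 and Insig1 at -0.74 ± 0.96 (SE) led the sterol genes, and Elovl6 at -0.90 ± 0.97, Fasn at -0.60 ± 0.49 and Scd2 at -0.40 ± 0.41 the fatty acid genes. These rest on library 8: without libraries 3, 7 and 8 the medians were 0.09 and 0.14, and within the runs the sterol median was -1.995, 0.15 and 0.05. In SUN1L cells, where each gel has 1 low library, the medians were 0.04 and 0.06, and limma called 0 members (0%) and the test of proportions 0 (1.4%). The sterol median was -0.58 without library 3, 0.57 without library 7 and 0.06 without libraries 3, 7 and 8, where the fatty acid median was 0.03. Mvd at -0.30 ± 0.70, Acat2 at 0.29 ± 0.94 and Srebf2 at -0.27 ± 0.44 had the largest differences of the sterol genes there, and Acss2 and Elovl6 had 0.29 ± 0.35 and 0.23 ± 0.97.

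Srebf1 was the exception among the members in both lines with all libraries in the fit. It was lower on 308 kPa by -0.22 ± 0.09 in KDEL cells (unadjusted p = 0.0369) and by -0.39 ± 0.09 in SUN1L cells (unadjusted p = 0.00144). The adjusted p was 1 in both, and with all libraries Srebf1 was the only member with an unadjusted p under 0.05 in either. At this level 0.687% and 1.31% of all genes were lower. The groups did not overlap for Srebf1 (2.65% of all genes in KDEL and 3.08% in SUN1L cells, lower) and every run had the lower value on 308 kPa, but the difference was 1.16- and 1.31-fold and does not reach the 2-fold limit. It was -0.22 and -0.35 without libraries 3, 7 and 8. In that fit 3 members were higher and 1 lower on 308 kPa at an unadjusted p under 0.05 in KDEL cells (0.986% and 0.855% of all genes). In SUN1L cells 1 was higher and 1 lower (1.2% and 1.77%). For Srebf1 the difference between the lines, with all libraries, was -0.17 ± 0.13 (unadjusted p = 0.214).

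The interaction of SUN1L and rigidity asks whether the effect of the gel differs between the lines. Its median was 0.58 for sterol and 0.29 for fatty acid genes. With limma 0 members were called (0%), and none had an unadjusted p under 0.05 (0.399% of all genes above 0 and 0.506% below). An analysis of variance of both factors with Bonferroni correction also called 0 members. Its calls over all genes were not counted, so this 0 says nothing about the members in particular. No member had an unadjusted p under 0.05 in the analysis of variance (0.468% of all genes above 0 and 0.687% below). Idi1 at 1.19 ± 1.57, Acat2 at 0.95 ± 1.33, Insig1 at 0.93 ± 1.35 and Elovl6 at 1.13 ± 1.37 (SE) were the largest, and Fads1 and Fasn had 0.48 ± 0.67 and 0.44 ± 0.70. Without libraries 3, 7 and 8 the medians were -0.06 and -0.13, so the sign of the interaction follows these libraries. All 4 groups of this fit but KDEL cells on 1 kPa hold 1 low library.

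**Figure D5:**
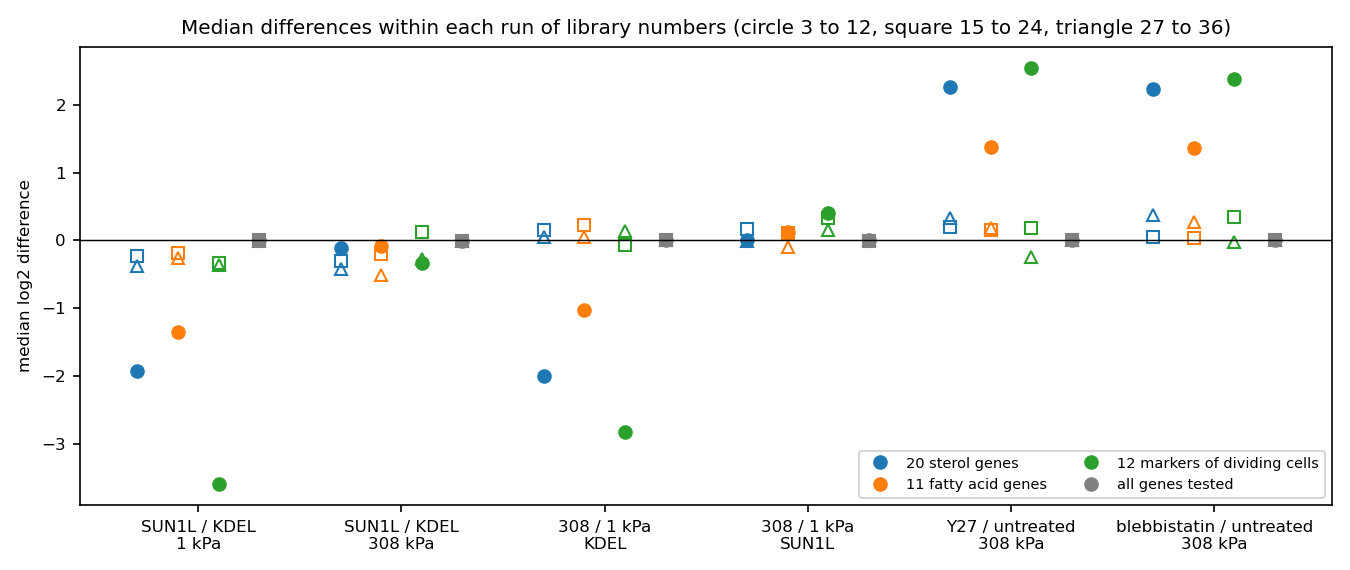
Median log2 difference within each run of library numbers for sterol genes, fatty acid genes, dividing markers and all genes tested, in 6 comparisons. Filled circles (run of libraries 3 to 12) lie near -2 or above 2 for sterol genes wherever a single low library enters. Open squares and triangles stay within 0.5 of 0 for the sterol genes.

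With Y27, 30 of 31 members were higher than in untreated KDEL cells on 308 kPa, Me1 being the exception. The median log2 fold change was 0.96 for sterol and 0.59 for fatty acid genes, against 0.01 for all genes. With limma 0 members were called (0% of all genes), and 6 had an unadjusted p under 0.05, all higher (3.69%), with a smallest adjusted p of 0.707. The test of proportions called 2, Mvk and Mvd, and 3.75% of all genes. The groups did not overlap for 16 members, all higher (4.95% of all genes), and 23 were higher in each of the 3 runs (14%). Acss2 differed by 0.87 ± 0.21 (1.83-fold, unadjusted p = 0.00355), Mvk by 1.17 ± 0.38 (unadjusted p = 0.0162) and Dhcr7 by 1.03 ± 0.35 (unadjusted p = 0.0186). Mvd at 1.46 ± 0.54 (unadjusted p = 0.0269), Pmvk at 1.21 ± 0.48 (unadjusted p = 0.0374) and Scd1 at 0.78 ± 0.31 (unadjusted p = 0.037) were the others. Idi1 at 1.48 ± 0.81, Elovl6 at 1.30 ± 0.75 and Insig1 at 1.30 ± 0.73 had differences of similar size but a wider error than these. Fasn stood at 0.87 ± 0.42.

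The untreated group of this comparison includes library 8. Without it the medians with Y27 were 0.24 for sterol and 0.26 for fatty acid genes, the smallest adjusted p was 0.222, and the groups still did not overlap for 16 members (9.11% of all genes, with 3 libraries against 2). In that fit Acss2 was higher by 0.60 (unadjusted p = 0.000137), Mvd by 0.73 (unadjusted p = 0.00309), Dhcr7 by 0.58 (unadjusted p = 0.00975) and Mvk by 0.69 (unadjusted p = 0.011). Idi1 was higher by 0.35 and Fdft1 lower by -0.10. The run medians of the sterol genes were 2.27, 0.20 and 0.33. The median of the dividing markers was 0.85 with library 8 and -0.10 without it.

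With blebbistatin, 30 of 31 members were also higher, with medians of 0.92 for sterol and 0.59 for fatty acid genes. Here 0 members were called by limma (0%) and 0 by the test of proportions (3.61%), 2 had an unadjusted p under 0.05 (2.05% of all genes), and the smallest adjusted p was 0.890. The groups did not overlap for 8 members, all higher (3.66%), and also for 8 without library 8 (6.64%). Acss2 was higher by 0.72 ± 0.21 (unadjusted p = 0.01) and Mvk by 0.97 ± 0.38 (unadjusted p = 0.0363). Idi1 at 1.39 ± 0.81, Insig1 at 1.15 ± 0.73, Acat2 at 1.09 ± 0.71, Elovl6 at 1.21 ± 0.75 and Fasn at 0.75 ± 0.42 had the largest means of the others named by size. Without library 34 the medians were 0.83 and 0.59, and 1 member, Acss2, had an unadjusted p under 0.05 (1.58% of all genes, higher). It stood at 0.73 ± 0.26 (unadjusted p = 0.0251), and Mvk stood at 0.85 ± 0.45. In that fit 30 of 31 were higher, and the groups did not overlap for 8 members, all higher (7.2% of all genes). Without library 34 the test of proportions called 0 members (3.28% of all genes). Idi1, Insig1, Acat2, Elovl6 and Fasn stood at 1.29, 1.08, 0.995, 1.12 and 0.70 in the limma fit. Without library 8 the medians were 0.20 and 0.17, and without libraries 8 and 34 they were 0.14 and 0.09. Without library 8 Acss2 was higher by 0.44 (unadjusted p = 0.00078, adjusted p = 0.403).

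Y27 and blebbistatin were compared with each other at the single dose of each. The members differed by -0.11 to 0.41 on the log2 scale, with medians of 0.08 for sterol and 0.09 for fatty acid genes. With limma 0 members were called (0%) and with the test of proportions 0 (1.8%), and none had an unadjusted p under 0.05 (1.71% of all genes were higher and 1.12% lower with Y27). Mvd at 0.41 ± 0.54, Pmvk at 0.41 ± 0.48 and Dhcr7 at 0.37 ± 0.35 (SE) were the largest, all higher with Y27, and Scd2, Srebf1 and Acss2 had 0.20 ± 0.37, 0.19 ± 0.11 and 0.16 ± 0.21. Without library 8, which changes only the estimate of the spread, Mvd and Dhcr7 had unadjusted p of 0.025 and 0.041, both with an adjusted p of 0.949. Without library 34 the medians were 0.15 and 0.12, Pmvk was higher by 0.61 ± 0.56, Mvd by 0.53 ± 0.64 and Dhcr7 by 0.33 ± 0.42, and Scd2, Srebf1 and Acss2 by 0.17, 0.21 and 0.14. Both inhibitors share the untreated libraries, so their differences from them are not independent.

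Of 32 other genes of the pathway and its regulation that were tested, 0 were called by limma in any of the 8 comparisons. In SUN1L cells on 1 kPa 21 were lower in the mean, with a median of -0.12 that held without libraries 3, 7 and 8. On 308 kPa 26 were lower, with a median of -0.12, and of -0.21 without these libraries. With Y27 2 had an unadjusted p under 0.05, both higher (3.69% of all genes). They were Tm7sf2, a sterol reductase, at 1.01 ± 0.40 (unadjusted p = 0.0373), and Elovl5, an elongase of polyunsaturated chains, at 0.49 ± 0.21 (unadjusted p = 0.0448). Without library 8 they stood at 0.52 (unadjusted p = 0.0735) and 0.23 (unadjusted p = 0.0377). Tm7sf2 read 298.7, 954.9 and 701.2 in untreated KDEL cells on 308 kPa and 956.2, 1603 and 1062 with Y27. At least 2-fold below their group in libraries 3, 7 and 8 were 5, 7 and 10 of the 32, a smaller share than of the members.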

How the data were processed

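Polyadenylated RNA was sequenced as 50-bp read pairs and aligned with TopHat (version 2.0), per the submitters' processing notes. The authors deposited normalized signal per gene, read pairs scaled by TMM in AvadisNGS on a linear scale with values below 1 set to 1. Counts are not given, so no count test was run and the depth is unknown. The notes name build mm9, but the positions in the table overlap the GRCm38.p6 annotation for 99.9% of 20091 matched genes, so GRCm38 is printed. Genes were tested (16021) where 3 or more of the 18 libraries exceeded the lowest value, on log2(signal + 1), a scale that understates changes of low genes, with limma 3.58.1 in R 4.3.3. One fit held the 12 libraries of SUN1L and KDEL without inhibitor and another the 9 KDEL libraries on 308 kPa. A call needed an adjusted p under 0.05 and a 2-fold difference. The fits were tested on simulated data. With 3 against 3 an exact permutation test cannot give less than 0.1, so none was run. All 31 members are named and drawn in the heat map, not all with values in the text. The 3 of each list with the largest log2 fold change in a comparison are given library by library in some or all groups. Mvk and Scd1 were added after their values were seen. The members and lists were chosen with earlier results of these data known.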

Additional observations from a re-analysis of the deposited data

How the results depend on the processing

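No member was called by limma under any alternative run. The test of proportions, which leaves out the spread between libraries, called 1 member in SUN1L cells on 1 kPa and 2 with Y27, Mvk at 1.01 and Mvd at 1.17. Medians of both lists moved with the choice of libraries, and except between the inhibitors the sterol medians ran over the wider range. Without libraries 3, 7 and 8, an alternative chosen after seeing the data, the fatty acid median was -0.23 for SUN1L on 1 kPa. It was 0.14 for rigidity in KDEL cells, -0.13 for the interaction and 0.17 for blebbistatin. With runs 2 and 3 only, also chosen after seeing the data, these were -0.21, 0.12, -0.14 and 0.20, and 0.22 for Y27. Leaving out 1 library at a time, the fatty acid median ran from -0.79 to -0.23 for SUN1L on 1 kPa, from -0.646 to 0.034 on 308 kPa, from -0.41 to 0.14 for rigidity in KDEL cells and from -0.36 to 0.31 in SUN1L cells. It ran from -0.088 to 0.561 for the interaction, from 0.26 to 0.86 for Y27, from 0.17 to 0.75 for blebbistatin and from -0.01 to 0.12 between the inhibitors. The sterol median ran from -1.12 to -0.32 for SUN1L on 1 kPa, from -0.995 to 0.305 on 308 kPa, from -0.96 to 0.09 for rigidity in KDEL cells, from -0.58 to 0.57 in SUN1L cells and from -0.07 to 1.15 for the interaction. It ran from 0.24 to 1.30 for Y27, from 0.20 to 1.27 for blebbistatin and from 0.05 to 0.15 between the inhibitors.

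No paired analysis was possible because the labels give no replicate numbers and name no shared culture or day. The library numbers themselves form the runs, and a fit was also made with the runs as a block. Since each run holds 1 library of each group, the block cannot change a median and alters only the error. Members with an unadjusted p under 0.05 became 19 lower and 1 higher for SUN1L on 1 kPa (7.76% and 6.34% of all genes, smallest adjusted p of 0.261) and 8 higher for Y27 (6.29%). The fits that left out 1 library at a time had no block, and their counts are set against the main fit. On 1 kPa the count went from 1 to 0 lower without library 3, 4 or 28 (0.849%, 1.08% and 1.57% of all genes). On 308 kPa it went from 0 to 1 lower without library 8 or 19 (1.49% and 1.34%). For Y27 it went from 6 to 18, 11 and 3 higher without library 20, 32 or 24 (4.23%, 8.7% and 2.3%). For blebbistatin it went from 2 to 13 and 11 higher without library 20 or 32 (3.47% and 7.26%). Without library 10, 22 or 34 it went to 1 (1.57%, 1.65% and 1.58%). The signal is TMM-scaled, counts are not given, and the 7 members that were at least 2-fold lower in SUN1L cells on 1 kPa all had an unadjusted p above 0.05. The cause of the low libraries was not tested.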
